A study of Danio rerio with 6 samples.

Results

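The neural crest and pigment cell genes described here were sox10, foxd3, mitfa, dct, tyr, tyrp1b, pmela, kita and tfap2a. They were chosen by name, not by their values, though earlier results of these data were known when they were chosen. The 9 names were matched, ignoring case, to the gene names of the table's Ensembl identifiers, and where a name was absent its form without the final a or b was used. This gave 11 of the 27456 rows, and all 11 passed the filter on low counts. MITF and TYRP1 each belong to 2 identifiers, and the sources used here do not say which MITF row is mitfa or which TYRP1 row is tyrp1b, so both rows of each are given with their identifiers. The single KIT row likewise has no paralog letter. The names are printed as the name table spells them.

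The libraries came from cells sorted from zebrafish embryos at 24 hours post fertilization. A total of 3 libraries came from Gata4 morphant embryos and 3 from wildtype embryos. All embryos carried the transgene tg(myl7::gfp): a cardiac myosin light chain promoter drives green fluorescent protein, so the sort keeps cells with that promoter's activity. Each sample pooled about 200 embryos, and whether the samples are of separate clutches is not stated, so each p-value reflects the spread among these samples alone, part of which may be technical. Morphant embryos had received 2 nl of a 0.7 mM morpholino, an antisense oligomer against the zinc finger transcription factor Gata4. The labels mention no control oligomer for the wildtype embryos. The oligomer is shown because it is what separates the groups, in lower case throughout and 5′ to 3′:
Gata4 morpholino: tccacaggtgagcgattattgcttc

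Neural crest cells arise at the border of the neural plate, leave the neural tube and give rise to pigment cells, peripheral neurons and glia, and much of the skeleton of the face. Their specification uses the transcription factors Tfap2a, Foxd3 and Sox10. Sox10 activates mitfa, whose product is needed for melanophores, the black pigment cells, and the melanin genes tyr, dct, tyrp1b and pmela act further along that path. In zebrafish, melanin first becomes visible at about the stage sampled here, in the retinal pigment epithelium and in melanophores, and lineage tracing has placed some neural crest cells in the heart.

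The libraries held 12574486, 37906530 and 16779626 counts in morphant replicates 1 to 3, and 15302189, 21119399 and 19009161 counts in wildtype replicates 1 to 3. The mRNA-Seq kit was used for morphant replicate 1 and wildtype replicates 1 and 2, and the TruSeq kit for morphant replicates 2 and 3 and wildtype replicate 3. MYL7 (ENSDARG00000019096) had 385, 237 and 268 CPM across morphant replicates 1 to 3, against 1004, 700 and 433 CPM across wildtype replicates 1 to 3. This does not give the share of cardiac cells. The leukocyte marker CORO1A had 245, 1637 and 512 CPM across the same morphant libraries, against 1455, 2260 and 2525 CPM in wildtype. CPM here are counts scaled to a common library total by the TMM method. The rows of the 11 neural crest and pigment genes held between 8 and 1280 counts in a library. gata4 itself was not analysed here, so the labels could not be checked on the targeted gene. The libraries of the morphant group stood apart from each other, as the marker sums below show, and results that rest on 1 library are given with and without it. Without morphant replicate 1, the mRNA-Seq kit holds no morphant library, so with the kit term wildtype replicates 1 and 2 drop out of the group contrast as well, and morphant replicates 2 and 3 are set against wildtype replicate 3 alone. Values of that fit nearly repeat those within the TruSeq libraries and are no second check, so a fit without both the kit term and morphant replicate 1, which keeps all wildtype libraries in the contrast, is given instead for single rows. It was added after the data were seen.

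Morphant cells were compared with wildtype cells to ask which transcripts differ once Gata4 is knocked down. Of the 11 rows, 9 had a positive and 2 a negative log2 fold change, morphant over wildtype, where 53.5% of the 18033 genes tested had a positive one. The 2 negative rows were the MITF rows. The median over the 11 rows was 0.73 on the log2 scale, against 0.073 over all genes tested. With libraries scaled by their totals alone, both medians were larger, at 1.17 for the 11 rows and 0.46 for all genes, and the MITF rows stayed negative. The neural, skeletal muscle and epidermal marker lists below had TMM-scaled medians of 1.32, 1.66 and 1.02, above that of the 11 rows. The leukocyte, cardiomyocyte, endothelial and erythroid lists had -2.03, -1.02, -0.23 and -0.14. No row passed edgeR's quasi-likelihood test at an adjusted p under 0.05, nor did any of the 18033 genes, a share of 0% in each direction. At an unadjusted edgeR p under 0.05 there were 3 of the 11 rows, with FOXD3 and TFAP2A higher and MITF (ENSDARG00000003732) lower. Over all genes tested that share was 7.62% higher and 4.92% lower, or 1374 and 887 genes. With totals alone it was 2972 higher and 403 lower, 16.5% and 2.23%. DESeq2 called 1 of the 11 rows, the same MITF row, lower at an adjusted p under 0.05, where it called 0.943% of genes lower and 0.682% higher. limma-voom called 0 of the rows and 0 genes, with 2 of the 11 rows, TFAP2A and MITF (ENSDARG00000003732), at an unadjusted p under 0.05. The share of all genes with such a limma-voom p is not given here, so that count has no comparison.

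**Figure D1:**
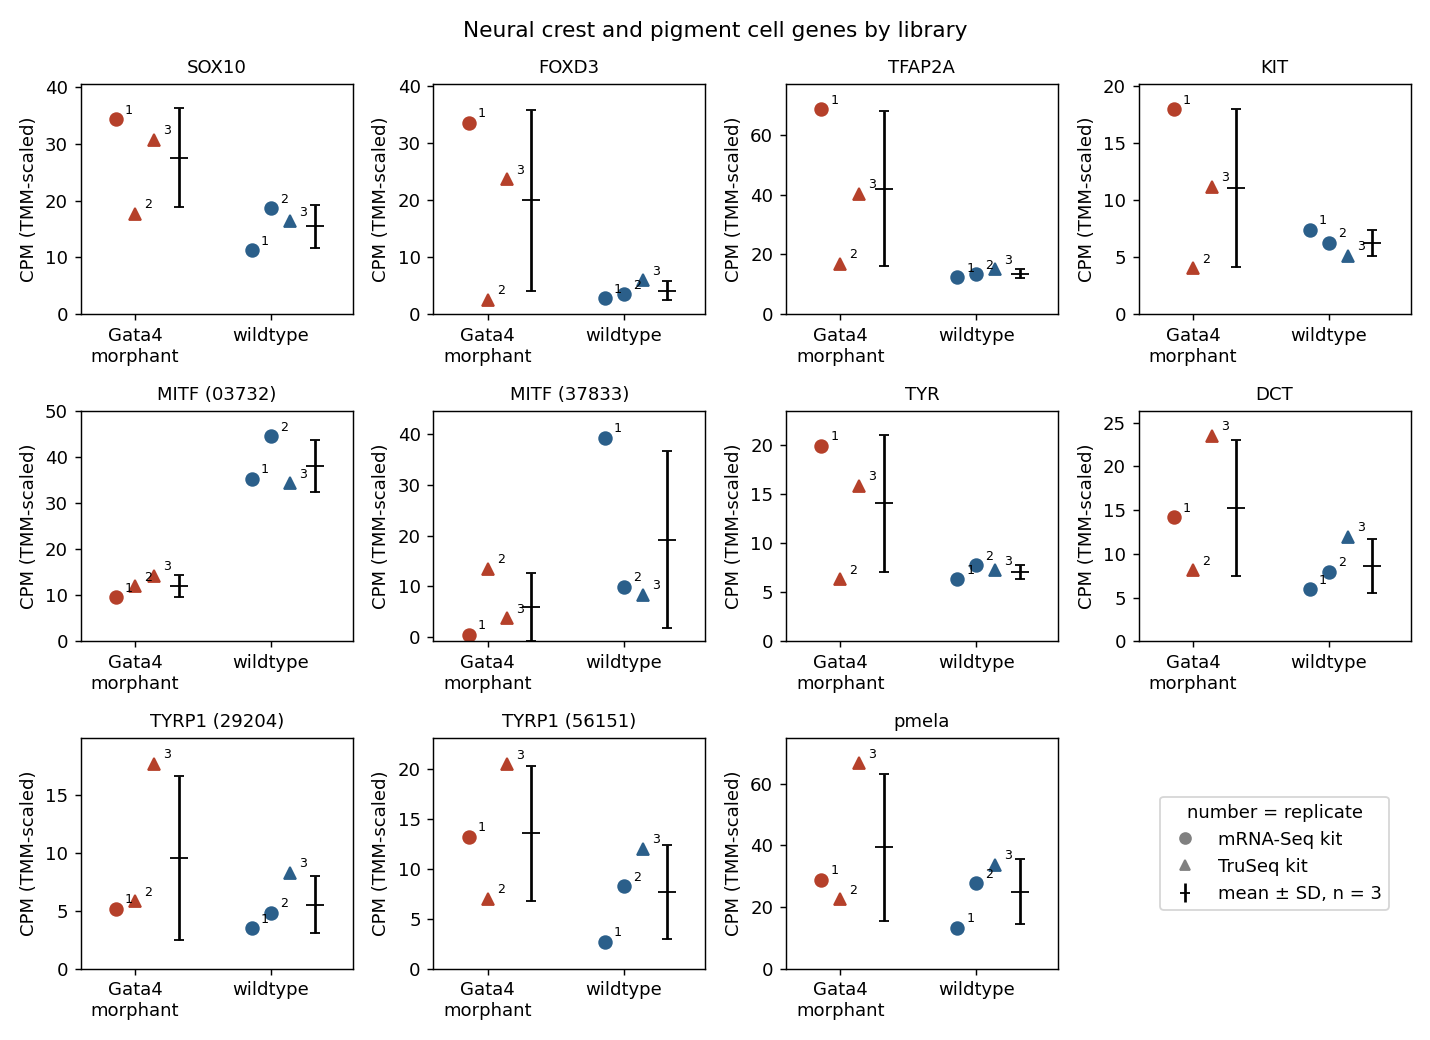
Each panel plots 1 row's level (CPM, TMM-scaled, linear axis) in the 3 Gata4 morphant libraries (left) and the 3 wildtype libraries (right), with circles for the mRNA-Seq kit, triangles for the TruSeq kit, the replicate number beside each point, and the mean ± SD (n = 3 each) as a bar. Where a symbol has more than 1 row, the last digits of its identifier are in parentheses. Morphant replicate 2 lies near the wildtype libraries for most rows, and MITF (ENSDARG00000003732) has all morphant libraries below all wildtype libraries.

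TFAP2A, an AP-2 transcription factor that acts at the start of crest formation and also in the epidermis, had the clearest separation among the crest factors. It had 68.6, 16.9 and 40.3 CPM across morphant replicates 1 to 3, against 12.4, 13.3 and 15.1 CPM across wildtype replicates 1 to 3. Every morphant library was above every wildtype library, morphant replicate 2 by little. It was the only 1 of the 11 rows with that order, which 7.76% of the genes tested had. The log2 fold change was 1.67 (SE 0.49), with an edgeR p of 0.0115 before and 0.393 after adjustment. DESeq2 gave an adjusted p of 0.0867. Within the mRNA-Seq libraries it was 2.35 and within the TruSeq libraries 0.82. It was 1.96 without morphant replicate 2, where the edgeR adjusted p was 0.0137. That fit, also quoted for rows below, called 8.19% of 19034 genes higher and 11.5% lower. Dropping the kit term gave 1.62, and dropping morphant replicate 1 as well gave 1.00. That last fit, also quoted for rows below, called 0 of the 11 rows and 0 genes.

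FOXD3, a forkhead factor of premigratory crest cells that also represses mitfa in zebrafish, had the largest positive log2 fold change of the 11 rows. It had 33.6, 2.59 and 23.7 CPM across morphant replicates 1 to 3, against 2.82, 3.49 and 6.02 CPM across wildtype replicates 1 to 3. Morphant replicates 1 and 3 were above all wildtype libraries and morphant replicate 2 was below them all, so the groups overlapped. The log2 fold change was 2.27 (SE 0.88), with an edgeR p of 0.0363 before and 0.393 after adjustment. It was 2.78 without morphant replicate 2, where the edgeR adjusted p was 0.0117. It was 2.28 with no kit term, and 1.59 without morphant replicate 1 as well. Within the mRNA-Seq libraries it was 3.34 and within the TruSeq libraries 1.00.

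SOX10, the SRY-related factor of crest specification that also drives pigment and glial fates, had a smaller difference. It had 34.3, 17.7 and 30.7 CPM across morphant replicates 1 to 3, against 11.3, 18.7 and 16.4 CPM across wildtype replicates 1 to 3. Morphant replicate 2 lay inside the wildtype range and the other morphant libraries above it. The means were 27.6 ± 8.75 CPM in morphants and 15.5 ± 3.79 CPM in wildtype (SD, n = 3 each), and the log2 fold change was 0.88 with an SE of 0.41 and an edgeR adjusted p of 0.394. Without morphant replicate 2 it was 1.03 (edgeR adjusted p = 0.0678). Dropping the kit term gave 0.83, and dropping morphant replicate 1 as well gave 0.58.

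KIT, the receptor tyrosine kinase whose kita form guides and sustains zebrafish melanophores, had 17.95, 4.06 and 11.2 CPM across morphant replicates 1 to 3, against 7.42, 6.28 and 5.13 CPM across wildtype replicates 1 to 3. Again morphant replicates 1 and 3 were above the wildtype range and morphant replicate 2 below it. The log2 fold change was 0.98 with an SE of 0.51 and an edgeR adjusted p of 0.399, and 1.24 without morphant replicate 2, where the edgeR adjusted p was 0.0440. It was 0.81 with no kit term, and 0.21 without morphant replicate 1 as well.

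The MITF rows went the other way. MITF is the basic helix-loop-helix leucine zipper factor that sets the pigment cell fate; of its zebrafish copies, mitfa is needed for melanophores and mitfb is expressed in the retinal pigment epithelium. MITF (ENSDARG00000003732) had 9.57, 12.0 and 14.3 CPM across morphant replicates 1 to 3, against 35.4, 44.7 and 34.4 CPM across wildtype replicates 1 to 3. Every morphant library, including replicate 2, was below every wildtype library, an order that 5.78% of the genes tested had. The means were 12.0 ± 2.38 CPM in morphants and 38.2 ± 5.67 CPM in wildtype (SD, n = 3 each), and the log2 fold change was -1.72 with an SE of 0.36. The edgeR p was 0.00213 before adjustment, the smallest among the 11 rows, and 0.393 after it. DESeq2 gave an adjusted p of 0.00823. The log2 fold change was -2.13 within the mRNA-Seq libraries and -1.47 within the TruSeq libraries. It was -1.75 without morphant replicate 2 (edgeR adjusted p = 0.0206). Dropping the kit term gave -1.67, and dropping morphant replicate 1 as well gave -1.59.

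MITF (ENSDARG00000037833) was spread widely inside both groups. It had 0.497, 13.5 and 3.75 CPM across morphant replicates 1 to 3, against 39.3, 9.93 and 8.33 CPM across wildtype replicates 1 to 3. Morphant replicate 1, with 8 counts, was the lowest library and wildtype replicate 1 the highest, and morphant replicate 2 lay inside the wildtype range. The log2 fold change of -2.53 had an SE of 1.86 (edgeR adjusted p = 0.489). Within the TruSeq libraries it was 0.014 and within the mRNA-Seq libraries -5.67. Without morphant replicate 2 it was -3.30 (edgeR adjusted p = 0.118). It was -1.68 with no kit term, and -1.17 without morphant replicate 1 as well.

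The melanin genes had positive fold changes, and none passed the test over all 6 libraries. TYR, the tyrosinase that catalyses the rate-limiting step of melanin synthesis, had 19.9, 6.36 and 15.9 CPM across morphant replicates 1 to 3, against 6.37, 7.76 and 7.24 CPM across wildtype replicates 1 to 3. Morphant replicates 1 and 3 were above the wildtype libraries, which differed little among themselves (7.12 ± 0.706 CPM, SD, n = 3), and replicate 2 was just below them. The log2 fold change was 1.06 with an SE of 0.49 and an edgeR adjusted p of 0.394, and 1.30 without morphant replicate 2 (edgeR adjusted p = 0.0359). Dropping the kit term gave 0.98, and dropping morphant replicate 1 as well gave 0.57.

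DCT, the dopachrome tautomerase and an early melanoblast gene, had 14.2, 8.14 and 23.5 CPM across morphant replicates 1 to 3, against 5.97, 7.97 and 12.0 CPM across wildtype replicates 1 to 3. The groups overlapped through morphant replicate 2, and morphant replicate 3 was the highest library. Its log2 fold change was 0.71 with an SE of 0.50 and an edgeR adjusted p of 0.479. Without morphant replicate 2 it was 0.96 (edgeR adjusted p = 0.0763). It was 0.82 with no kit term, and 0.80 without morphant replicate 1 as well. pmela, whose product forms the fibrils on which melanin is laid down, had 28.8, 22.6 and 66.7 CPM across morphant replicates 1 to 3, against 13.3, 27.8 and 33.8 CPM across wildtype replicates 1 to 3. Only morphant replicate 3 was above the wildtype range. Its log2 fold change was 0.44 with an SE of 0.52 and an edgeR adjusted p of 0.655, and without morphant replicate 3 it was -0.021. Without morphant replicate 2 it was 0.67 (edgeR adjusted p = 0.249). Dropping the kit term gave 0.66, and dropping morphant replicate 1 as well gave 0.77.

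The TYRP1 rows, for tyrosinase-related proteins of the melanosome, followed pmela. TYRP1 (ENSDARG00000056151) had 13.2, 7.02 and 20.5 CPM across morphant replicates 1 to 3, against 2.69, 8.29 and 12.0 CPM across wildtype replicates 1 to 3. TYRP1 (ENSDARG00000029204) had 5.16, 5.81 and 17.7 CPM across morphant replicates 1 to 3, against 3.48, 4.81 and 8.27 CPM across wildtype replicates 1 to 3. In both rows morphant replicate 3 was the highest library and wildtype replicate 1 the lowest. The log2 fold changes were 0.73 (SE 0.62) and 0.41 (SE 0.55), with edgeR adjusted p values of 0.546 and 0.694. Without morphant replicate 3 the second was -0.098. Without morphant replicate 2 they were 1.01 and 0.63, with edgeR adjusted p values of 0.190 and 0.298. Dropping the kit term gave 0.82 and 0.79, and dropping morphant replicate 1 as well gave 0.77 and 1.01. Reads shared between the paralogs could be split or dropped by the counting, which is not described in the sources used here, and this holds for the MITF rows as well.

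**Figure D2:**
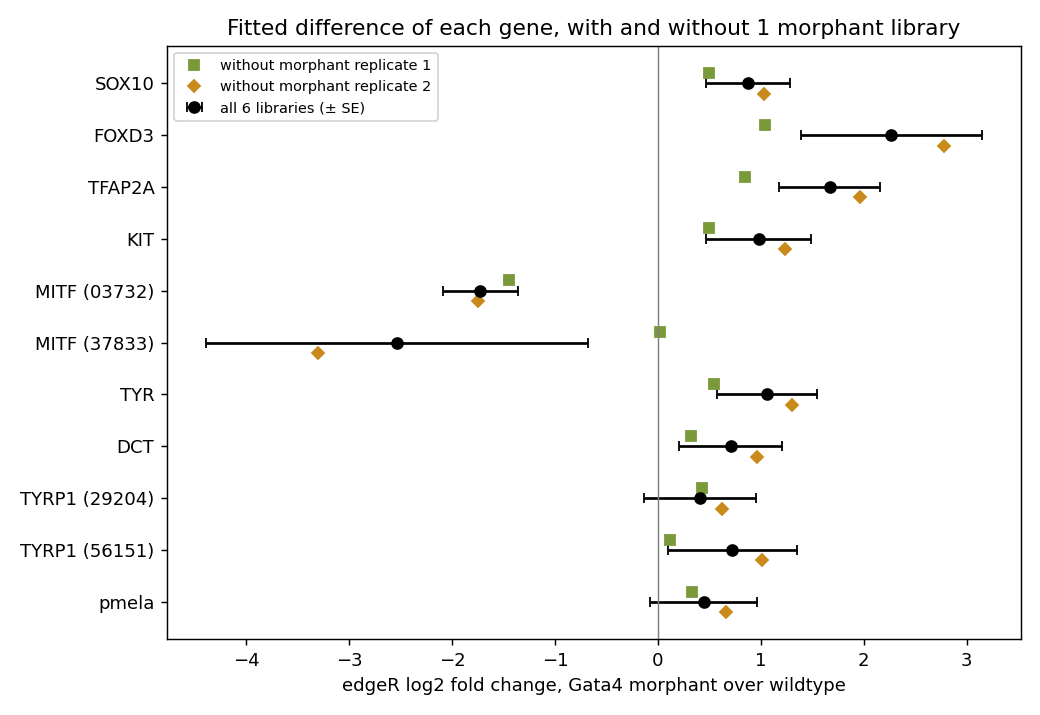
Each line gives the edgeR log2 fold change of 1 row, Gata4 morphant over wildtype, over all 6 libraries (black, ± SE) and without morphant replicate 1 (green squares) or without morphant replicate 2 (orange diamonds). The 9 rows other than MITF lie right of 0 in all 3 fits, and MITF (ENSDARG00000037833) lies at 0.023 without morphant replicate 1, a fit in which the kit term leaves wildtype replicate 3 as the only wildtype library in the contrast. Without morphant replicate 3, a fit that is not drawn, pmela was at -0.021 and TYRP1 (ENSDARG00000029204) at -0.098.

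Both kits hold libraries of both groups, and the 9 rows other than MITF were positive in each. Within the mRNA-Seq libraries their log2 fold changes ran from 0.24 for TYRP1 (ENSDARG00000029204) to 3.34 for FOXD3, with 1.12 for SOX10, 1.32 for KIT, 1.43 for TYR and 0.95 for DCT. Within the TruSeq libraries they ran from 0.086 for TYRP1 (ENSDARG00000056151) to 1.00 for FOXD3, with 0.47 for SOX10, 0.46 for KIT, 0.52 for TYR and 0.29 for DCT. The values were smaller within the TruSeq libraries for 8 of these 9 rows, the exception being TYRP1 (ENSDARG00000029204) with 0.40.

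How many rows separated depended on morphant replicate 2, as it did over all genes. Of the 9 positive rows, 8 had morphant replicate 2 at or below the highest wildtype library, and 3 had it below the lowest one. Over all genes tested, 9655 were positive, and 1400 had every morphant library above every wildtype library. Without morphant replicate 2, 7 of the 11 rows were above all wildtype libraries and 2 below. In the same libraries 28.6% and 26.7% of the genes had those orders. In that fit edgeR called 4 rows higher (FOXD3, TFAP2A, TYR and KIT) and MITF (ENSDARG00000003732) lower, where it called 8.19% of 19034 genes higher and 11.5% lower. Without morphant replicate 1, where wildtype replicate 3 alone is the comparison, it called 0 of the 11 rows and 0 genes, the rows' median was 0.43, and at an unadjusted p under 0.05 1.48% of genes were higher and 1.03% were lower. Only MITF (ENSDARG00000003732) of the 11 rows had such a p there. With no kit term the rows' median was 0.82, and 0.77 without morphant replicate 1 as well. In the latter fit edgeR again called 0 rows and 0 genes. There 2 rows had an unadjusted edgeR p under 0.05, and the share of all genes with such a p is not given here. An adjusted p under 0.05 stood beside 3 of the 11 rows in the authors' deposited table. By the authors' deposited table these were FOXD3 (0.00211) and TFAP2A (0.0364), both higher in morphants, and MITF (ENSDARG00000003732), lower in morphants at 0.04995. The authors' deposited table held 2.3% of its 27456 genes called higher and 0.262% called lower in morphants.

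The 11 rows did not share 1 order across the libraries. SOX10, FOXD3, TFAP2A, KIT and TYR were highest in morphant replicate 1, and DCT, pmela and both TYRP1 rows were highest in morphant replicate 3. Summed over the crest factors SOX10, FOXD3 and TFAP2A with KIT, the level was 154, 41.2 and 106 CPM across morphant replicates 1 to 3, against 33.9, 41.8 and 42.7 CPM across wildtype replicates 1 to 3. Summed over TYR, DCT, pmela and the TYRP1 rows, it was 81.3, 49.9 and 144 CPM across morphant replicates 1 to 3, against 31.8, 56.7 and 73.3 CPM across wildtype replicates 1 to 3. The MITF rows together had 10.1, 25.5 and 18.1 CPM across morphant replicates 1 to 3, against 74.7, 54.6 and 42.7 CPM across wildtype replicates 1 to 3. So morphant replicate 2 was close to wildtype in the first sums and below every wildtype library in the MITF sum. In RNA of pooled cells, fewer cells of a type and less RNA per cell cannot be told apart.

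On log2(CPM + 1) over the 6 libraries, which share their scaling and fall into separate groups, Pearson's r is given as a description. It was 0.98 between FOXD3 and TYR, 0.95 between FOXD3 and TFAP2A, 0.95 between pmela and TYRP1 (ENSDARG00000056151) and 0.93 between pmela and DCT. Between pmela and KIT it was 0.31. MITF (ENSDARG00000003732) had negative values with the 9 rows other than MITF, from -0.80 with TFAP2A to -0.31 with TYRP1 (ENSDARG00000029204), and 0.64 with the other MITF row. Among 13269 named genes with a mean of at least 1 CPM, those most like SOX10 by the same measure were YEATS4, PRMT5, SDHAF3, GPN1 and SH3TC2, with r of 0.99 to 1.00. Those most like MITF (ENSDARG00000003732) were UGGT1, MADD, ADCK1, spsb4b and ACSL4, with r of 0.98, and those most like MITF (ENSDARG00000037833) were ITGB3, ARHGAP45, MAPK14, MARCHF2 and LUZP1, with r of 0.99. With 6 libraries and this many candidates, such values are the highest of a long ranking.

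Levels per length came from the RPKM values the authors deposited, which were not TMM-scaled. In morphants pmela was the highest of the 11 rows with 13.9 ± 8.37 RPKM, followed by FOXD3 with 10.97 ± 8.75 and SOX10 with 8.46 ± 2.76 RPKM (SD, n = 3 each). KIT was the lowest with 0.542 ± 0.345 RPKM. The rows between ran from TYRP1 (ENSDARG00000056151) with 6.80 ± 3.37 RPKM down to MITF (ENSDARG00000003732) with 2.43 ± 0.464 RPKM. Only KIT lay further from its neighbour in this order than the larger of the 2 SDs. In wildtype MITF (ENSDARG00000037833) came first with 12.3 ± 10.8 RPKM, then pmela with 8.81 ± 3.87 and MITF (ENSDARG00000003732) with 7.67 ± 1.25 RPKM. SOX10 followed with 4.74 ± 1.26 RPKM, TFAP2A came next to last with 1.73 ± 0.212 RPKM and KIT last with 0.305 ± 0.0480 RPKM. There the gaps below MITF (ENSDARG00000003732) and below TFAP2A were larger than the SDs, and the others were not.

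**Figure D3:**
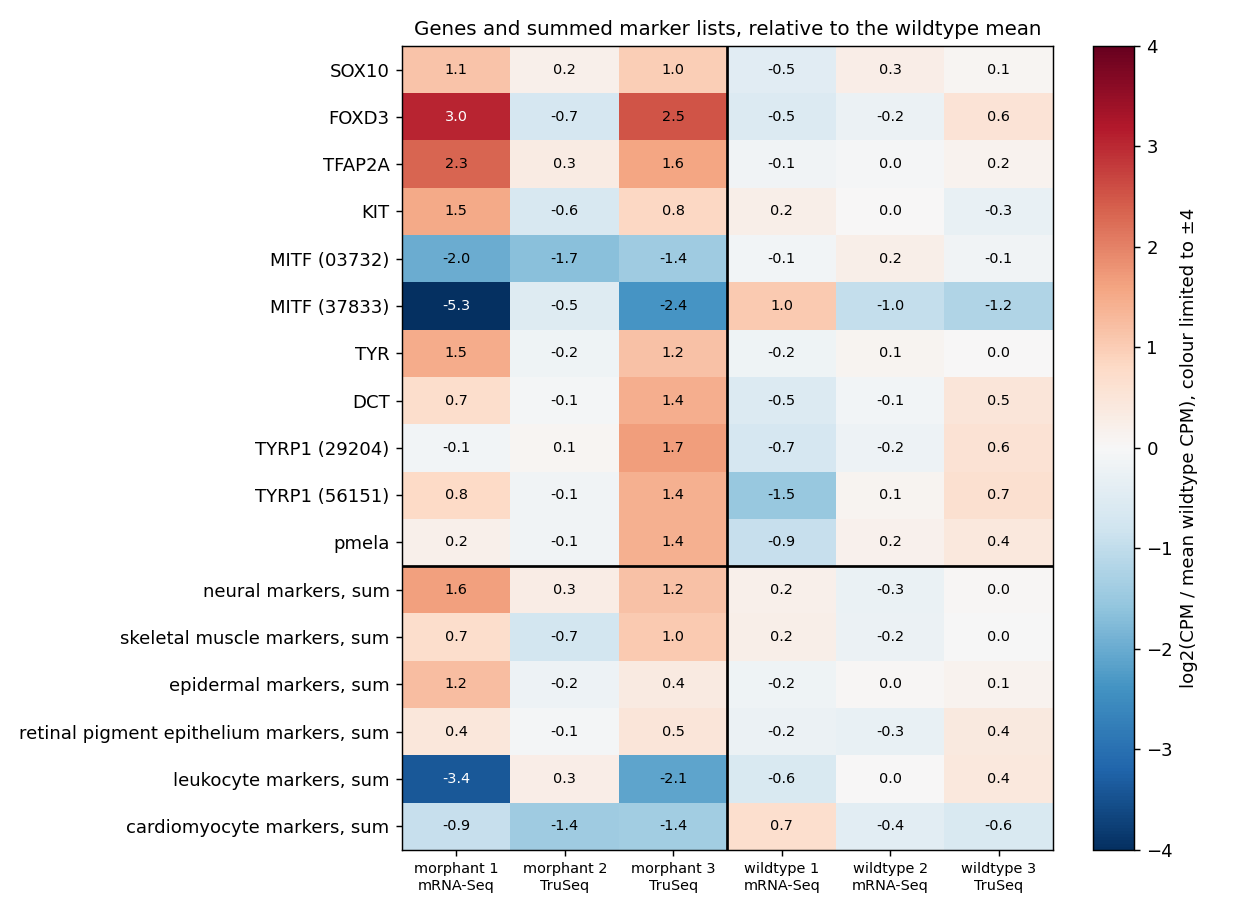
Each cell gives log2 of a library's CPM over the mean wildtype CPM, for the 11 rows (top) and for summed marker lists of other cell types (bottom), with the 3 morphant libraries left of the 3 wildtype libraries and the kit under each name. Red is above and blue below the wildtype mean. Morphant replicates 1 and 3 are red in most crest and pigment rows and in the neural markers and blue in the leukocyte markers, and morphant replicate 2 is near 0 in these; both MITF rows are blue in all 3 morphant libraries.

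Markers of other cell types moved between the same libraries. The 17 rows of the neural list summed to 1183, 467 and 860 CPM across morphant replicates 1 to 3, against 437, 318 and 393 CPM across wildtype replicates 1 to 3, with 16 of 17 tested rows positive. Skeletal muscle markers summed to 3201, 1167 and 4007 CPM across morphant replicates 1 to 3, against 2290, 1644 and 1910 CPM across wildtype replicates 1 to 3, with 13 of 15 positive. Epidermal markers, of interest beside TFAP2A, summed to 14629, 5478 and 8044 CPM across morphant replicates 1 to 3, against 5499, 6409 and 6858 CPM across wildtype replicates 1 to 3, with 9 of 12 positive. Morphant replicates 1 and 3 were above every wildtype library in these 3 sums. Morphant replicate 2 was above every wildtype library in the neural sum too, by less, and below every wildtype library in the muscle and epidermal sums. Leukocyte markers summed to 980, 12394 and 2390 CPM across morphant replicates 1 to 3, against 6857, 10440 and 13771 CPM across wildtype replicates 1 to 3, with 15 of 15 negative. Cardiomyocyte markers summed to 2990, 2092 and 2158 CPM across morphant replicates 1 to 3, against 8963, 4221 and 3680 CPM across wildtype replicates 1 to 3, with 13 of 15 negative. The cardiomyocyte sum, unlike the leukocyte sum, was below every wildtype library in all 3 morphant libraries. Erythroid markers had 6 of 9 negative and endothelial markers 6 of 7. No row of these lists was at 0 in every library. The part of these cell types in the values of the crest and pigment rows was not tested.

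Other genes of the neural crest and its pigment cells were set beside these rows. In 6 lists of related genes, edgeR and DESeq2 called 0 rows at an adjusted p under 0.05, and all edgeR adjusted p values of the genes named from them were 0.393 to 0.562. Of 26 rows of other crest specifiers, 21 were tested, 17 of them positive, and the median log2 fold change was 0.93. At an unadjusted edgeR p under 0.05, 5 were higher and 0 lower, where 7.62% of all genes tested were higher and 4.92% lower. msx1b, a homeobox gene of the neural plate border, had 35.2, 10.4 and 38.4 CPM across morphant replicates 1 to 3, against 10.1, 8.40 and 8.33 CPM across wildtype replicates 1 to 3, a log2 fold change of 1.74 (SE 0.54). All morphant libraries were above all wildtype libraries for it, though not when scaled by totals alone. The same order held under both scalings for TFAP2B, a paralog of TFAP2A (0.90, SE 0.39), and ZIC2 (ENSDARG00000037178), a zinc finger gene of the plate border (1.19, SE 0.60). Of all genes tested, 7.76% had every morphant library above every wildtype library, and 5.78% had every one below. The other ZIC2 row (ENSDARG00000015554) had 2.21 (SE 0.76), with groups that overlapped. PAX3 (ENSDARG00000010192), also of the plate border and the only tested of its 2 rows, had 22.4, 1.93 and 8.55 CPM across morphant replicates 1 to 3, against 4.20, 1.95 and 2.18 CPM across wildtype replicates 1 to 3, so that morphant replicate 2 was below the wildtype libraries (2.09, SE 0.72). ID3, an inhibitor of helix-loop-helix factors, was the 1 specifier below wildtype in every morphant library, at -0.64 (SE 0.42), though not when scaled by totals alone.

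Genes of crest derivatives were mostly positive too. Of 28 rows, 22 were tested and 21 were positive, with a median of 0.93. At an unadjusted edgeR p under 0.05, 6 were higher and 0 lower, where 7.62% of all genes tested were higher and 4.92% lower. PHOX2A, an autonomic neuron gene, had 1.49, 0.921 and 1.72 CPM across morphant replicates 1 to 3, against 0.328, 0.317 and 0.320 CPM across wildtype replicates 1 to 3. Its levels were low, and every morphant library was above every wildtype library (2.11, SE 0.58), an order that 7.76% of the genes tested had. DLX2 (ENSDARG00000017174), a homeobox gene of the pharyngeal arches, had that order as well (1.94, SE 0.65), while the other DLX2 row (ENSDARG00000079964) overlapped between the groups (0.67, SE 0.60). COL2A1 (ENSDARG00000069093), a cartilage and notochord collagen, had 962, 64.8 and 416 CPM across morphant replicates 1 to 3, against 111, 84.0 and 92.8 CPM across wildtype replicates 1 to 3 (2.34, SE 0.74), so that its groups overlapped through morphant replicate 2. The other COL2A1 row (ENSDARG00000011407) had 177, 47.5 and 153 CPM across morphant replicates 1 to 3, against 126, 66.8 and 75.9 CPM across wildtype replicates 1 to 3 (0.64, SE 0.51). Without morphant replicate 2 the median of this list was 1.09, and edgeR called 7 of 25 rows higher, where it called 8.19% of all genes higher.

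Other melanophore genes split in 2 directions. Of 19 rows, 17 were tested, with 10 positive and 7 negative and a median of 0.45. At an unadjusted edgeR p under 0.05, 1 was higher and 2 lower, where 7.62% of all genes tested were higher and 4.92% lower. MYO5A, a motor that carries melanosomes, had 16.1, 5.01 and 9.07 CPM across morphant replicates 1 to 3, against 8.66, 4.12 and 2.69 CPM across wildtype replicates 1 to 3 (1.36, SE 0.50).

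Of the 4 rows of that list with the smallest p, 3 were negative. tspan36, a tetraspanin gene, had 143, 1062 and 303 CPM across morphant replicates 1 to 3, against 728, 1009 and 1228 CPM across wildtype replicates 1 to 3 (-1.72, SE 0.68). RAB32, a small GTPase of lysosome-related organelles, had 22.2, 215 and 51.0 CPM across morphant replicates 1 to 3, against 145, 183 and 240 CPM across wildtype replicates 1 to 3 (-1.86, SE 0.78). In both, morphant replicates 1 and 3 were low and morphant replicate 2 was inside the wildtype range, as in the leukocyte sums. TRPM1, a cation channel gene of melanophores and of bipolar cells in the retina, had 0.497, 1.24 and 0.938 CPM across morphant replicates 1 to 3, against 1.31, 0.370 and 4.36 CPM across wildtype replicates 1 to 3 (-1.44, SE 0.66). Its levels were low and its groups overlapped. Its lowest library was wildtype replicate 2, with 7 counts. Whether leukocyte RNA has a part in the values of this list was not tested. Without morphant replicate 2 edgeR called 5 of the 17 rows lower and 0 higher, where it called 11.5% of all genes lower and 8.19% higher.

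Of 23 rows for xanthophores and iridophores, the yellow and the reflecting pigment cells, 20 were tested. There 10 were positive and 10 negative, with a median of -0.12. At an unadjusted edgeR p under 0.05, 2 were higher and 0 lower, where 7.62% of all genes tested were higher and 4.92% lower. The 2 higher rows were SOX5 (1.39, SE 0.46) and GBX2 (1.94, SE 0.74), both transcription factor genes that act outside pigment cells as well. Both had groups that overlapped, and GBX2 was lowest in wildtype replicate 3, at 0.833 CPM. The purine synthesis gene PAICS had 283, 51.2 and 87.0 CPM across morphant replicates 1 to 3, against 60.6, 65.9 and 68.4 CPM across wildtype replicates 1 to 3 (1.09, SE 0.51). Only morphant replicates 1 and 3 were above wildtype, and within the TruSeq libraries its value was -0.076. XDH, the xanthine dehydrogenase of pteridine pigment, had -1.21 (SE 0.58), with groups that overlapped. MYCBP2, a ubiquitin ligase gene, was below wildtype in every morphant library at -0.48 (SE 0.36), but not with totals alone. With TMM scaling, 5.78% of the genes tested were below wildtype in every morphant library.

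Signals that act on crest cells had 18 of 22 tested rows positive and a median of 0.60. At an unadjusted edgeR p under 0.05, 1 was higher and 1 lower, where 7.62% of all genes tested were higher and 4.92% lower. EDNRA (ENSDARG00000011876), an endothelin receptor of arch crest, had 22.0, 24.6 and 34.3 CPM across morphant replicates 1 to 3, against 78.1, 48.8 and 57.1 CPM across wildtype replicates 1 to 3 (-1.24, SE 0.38). All its morphant libraries were below all wildtype libraries, an order that 5.78% of the genes tested had. Its paralog ednrab had 33.1, 4.34 and 17.6 CPM across morphant replicates 1 to 3, against 7.28, 4.54 and 7.75 CPM across wildtype replicates 1 to 3 (1.50, SE 0.68). The cadherin gene cdh6 had 1.77 (SE 0.58), with groups that overlapped through morphant replicate 2, at 24.9 CPM. The neuregulin receptor gene ERBB3 had 1.64 (SE 0.70), where morphant replicate 1 had 21.4 CPM and the other libraries 2.22 to 3.07 CPM.

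Because tyr, dct, tyrp1b and pmela are also active in the retinal pigment epithelium, genes of that layer and of the optic cup were listed. Of 20 rows, 15 were tested and 14 were positive, with a median of 1.24. At an unadjusted edgeR p under 0.05, 3 were higher and 1 lower, where 7.62% of all genes tested were higher and 4.92% lower. The list summed to 276, 194 and 285 CPM across morphant replicates 1 to 3, against 174, 166 and 269 CPM across wildtype replicates 1 to 3. OTX1, a homeobox gene of the eye and brain, had 28.3, 13.6 and 21.2 CPM across morphant replicates 1 to 3, against 7.87, 6.87 and 10.5 CPM across wildtype replicates 1 to 3 (1.33, SE 0.42). It, VSX1 (2.40, SE 0.60) and SIX3 (ENSDARG00000054879; 1.01, SE 0.55) were above wildtype in every morphant library. Over all genes tested, 7.76% had that order. VSX1 levels were low, with 11, 15 and 2 counts in wildtype replicates 1 to 3. The other SIX3 row (ENSDARG00000058008) had 1.63 (SE 0.60), with groups that overlapped, though not when scaled by totals alone. BHLHE40, a helix-loop-helix repressor, was the only negative row at -0.78 (SE 0.29), with groups that overlapped. Which pigmented cells gave the reads of the melanin genes was not tested.

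**Figure D4:**
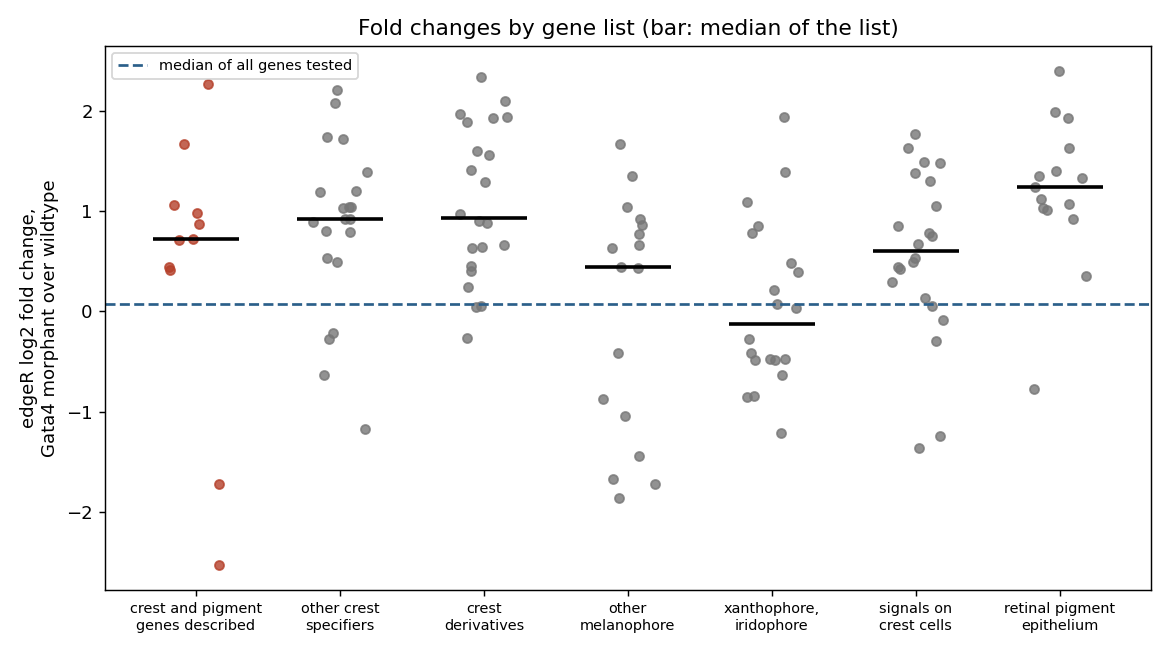
Each point is the edgeR log2 fold change (Gata4 morphant over wildtype, all 6 libraries) of 1 tested row, by gene list, with a black bar at the list's median and a dashed line at the median of all genes tested (0.073). The medians run from -0.12 for xanthophore and iridophore genes to 1.24 for genes of the retinal pigment epithelium, with 0.73 for the 11 rows described here, whose lowest points are the MITF rows.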

How the data were processed

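The authors deposited 1 table for the series, with raw counts per Ensembl gene and library, per the file headers. The authors' deposited RPKM values scale, gene by gene, with 1 plus the count. The authors also deposited a fold (ratio) of wildtype over morphant base means, with p-values and adjusted p-values, and the file headers name no test. Per the submitters' processing notes, BWA, DESeq, CASAVA 1.7.0 and the genome build Zv9 were used, in unstated roles. How reads were counted, on which annotation and whether by strand is not given in the sources used here.

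Columns were matched to samples by library name. Replicate numbers only name samples, by deposit order. Symbols matched 19189 of 27456 identifiers (69.9%). Counts were fitted with edgeR 4.0.16 (R 4.3.3): TMM scaling, filterByExpr (minimum count 10), terms for kit and group, a two-sided quasi-likelihood F test with 3 residual degrees of freedom, and Benjamini-Hochberg adjustment over the 18033 genes tested, with a threshold of 0.05. The SE is the log2 fold change divided by the root of F. The common dispersion was 0.220. DESeq2 1.42.0, limma-voom (limma 3.58.1), other scalings, no filter, no kit term, each kit alone and each library left out were alternatives. The fit was tested on simulated counts of lower dispersion than these data, with no kit difference and no library set apart. That test therefore does not show how many real differences the fit would miss here. Libraries of 1 group differed beyond sampling noise (chi-square per gene 50.2 to 366). With 12574486 to 37906530 counts a library, counting error is small beside the spread between libraries for most rows.

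Besides the 11 rows, the text names, per list, up to 4 rows with the smallest p, rows whose groups do not overlap, and 5 genes most like SOX10 and each MITF row, or a selection of these. A name without its own row was looked up without its final letter or number, so a row may stand for a paralog. The 11 rows and the 13 other lists were chosen with earlier results of these data known.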

Additional observations from a re-analysis of the deposited data

How the results depend on the processing

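No paired analysis was possible because the labels give no replicate numbers. Over all genes edgeR called 0, and 44 without a filter on low counts, 4352 in the mRNA-Seq libraries alone, 1 in the TruSeq libraries alone, 293 with DESeq2, and 0 to 3745 when 1 library was left out, the highest without morphant replicate 2. Of the 11 rows it called 0, against 1 with DESeq2, 4 in the mRNA-Seq libraries alone and 0 to 5 with 1 library left out. At an unadjusted p under 0.05 there were 3 rows, against 6 with totals alone and 1 to 8 with 1 library left out. Over all genes tested, 7.62% were higher and 4.92% lower at such a p, and 16.5% and 2.23% with totals alone. For most fits with 1 library left out that share is not given here, so their counts have no comparison. The count of rows above wildtype in every morphant library was 1, and 7 without morphant replicate 2. Of all genes tested, 7.76% and 28.6% had that order. With the kit term, leaving out morphant replicate 1 or wildtype replicate 3 leaves 1 kit in the group contrast, so these fits nearly repeat the TruSeq or mRNA-Seq fold changes; without the kit term, both called 0 rows and 0 genes. The mRNA-Seq fit holds 1 morphant library, assumed to vary like the wildtype ones, and the TruSeq fit holds 1 wildtype library. Counts of genes called in these fits are not given here. The unadjusted counts, the last fits without the kit term and the orders of libraries were added after the data were seen.

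The median of the 11 rows was 0.37 to 1.17 over the 16 alternatives, all positive. The sign of a row changed for MITF (ENSDARG00000037833), at 0.014 in the TruSeq libraries and -5.65 to 0.023 with 1 library left out, for TYRP1 (ENSDARG00000029204), at -0.098 to 0.63, and for pmela, at -0.021 to 0.67. MITF (ENSDARG00000003732) lay between -2.13 and -1.33. The cause of these changes was not tested.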
